A study of Mus musculus with 4 samples.

Results

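The BCL2 family of survival and death genes was examined in mouse leukaemia cells treated with the Toll-like receptor agonist R848 (resiquimod). Its 10 genes, chosen by symbol, were Bcl2, Bcl2l1, Mcl1, Bcl2a1a, Bcl2a1b, Bcl2l11, Bax, Bak1, Bid and Bbc3. Of these, 9 were matched among 28074 gene symbols and all 9 were tested, with 12612 genes tested in all. Bcl2a1a was not analysed here. The cells were leukaemic splenocytes from 2 mice, 4050 and 4182, labelled Dnmt3afl/fl, Flt3ITD/ITD, Mx1Cre, and each mouse gave 1 vehicle control sample and 1 sample with 10 µg/ml R848 (n = 2 per group). Control and treated cells of a mouse therefore shared their labelled genotype. Another label gives the Dnmt3a genotype as heterozygous (Dnmt3a+/-), and which holds was not settled here. Mx1-Cre is expressed from an interferon-inducible promoter, and the total value of a gene does not show whether the floxed exons were removed, or whether to the same extent in control and R848 cultures. Frozen cells recovered for 24 hours and were then cultured for 3 days with or without R848, in a growth medium that held 20% serum, SCF at 60 ng/ml, and IL6 and IL3 each at 20 ng/ml. Expression was measured by RNA sequencing and is given as FPKM, a level scaled to transcript length and to the size of the library. That puts genes on a common scale. How transcripts were summed to genes is not given, so comparisons of level between genes are approximate. Read counts were not used, so how many reads stand behind a value is not known.

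Proteins of this family decide whether the outer membrane of the mitochondrion stays intact. The pro-survival members, BCL2, BCL-XL (Bcl2l1), MCL1 and A1 (the Bcl2a1 genes), bind and hold back the effectors BAX and BAK, which otherwise form pores that release cytochrome c. BH3-only members, among them BIM (Bcl2l11), BID and PUMA (Bbc3), engage the pro-survival proteins, and some also activate BAX and BAK directly. Myeloid cells are known to depend on MCL1, A1 is known as a target of NF-kB in activated leukocytes, and BCL2 is the target of the drug venetoclax in acute myeloid leukaemia. Much control of the family lies in protein turnover and protein binding, which RNA levels do not show.

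The upstream sequences of the genes that moved most, Bcl2a1b and Bcl2, are shown here, with that of Bcl2a1a to show how alike the A1 copies are. They are RefSeq sequences on GRCm38.p6, written 5′ to 3′ on the strand of the gene and ending before the outermost annotated start of the transcript. All 10 genes matched a RefSeq promoter entry. Capitals mark a match to the AP-1 site, TGANTCA.
Bcl2a1b (chr9:89199023-89199208, plus strand): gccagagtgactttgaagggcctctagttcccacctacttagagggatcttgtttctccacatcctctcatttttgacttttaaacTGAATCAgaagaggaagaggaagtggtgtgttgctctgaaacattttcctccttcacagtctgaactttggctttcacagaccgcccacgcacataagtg
Bcl2a1a (chr9:88956670-88956899, plus strand): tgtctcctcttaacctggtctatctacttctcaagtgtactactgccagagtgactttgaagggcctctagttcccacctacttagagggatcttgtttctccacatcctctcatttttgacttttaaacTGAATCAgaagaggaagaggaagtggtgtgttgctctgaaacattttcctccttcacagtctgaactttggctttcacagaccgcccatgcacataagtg
Bcl2 (chr1:106714291-106714540, minus strand): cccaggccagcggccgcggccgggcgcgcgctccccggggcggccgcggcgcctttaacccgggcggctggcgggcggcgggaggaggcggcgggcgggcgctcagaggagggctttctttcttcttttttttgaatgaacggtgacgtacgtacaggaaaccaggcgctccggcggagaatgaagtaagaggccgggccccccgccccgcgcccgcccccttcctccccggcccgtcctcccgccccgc

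The 250 bases before each RefSeq start were searched on both strands for 6 motifs. These were the AP-1 site TGANTCA, the NF-kB site (GGGA, any base, TTTCC), the interferon element ISRE (GAAA, any 2 bases, GAAA), the STAT element GAS TTCNNNGAA, the ETS core CCGGAAG and the TATA box TATAAA. The AP-1 letters were found upstream of Bcl2a1a, Bcl2a1b and the further copy Bcl2a1d, and in 6.75% of 32851 such windows genome-wide. The ETS letters were found upstream of Mcl1 and in 1 of the windows of Bcl2l11, against 6.91% of all windows. The other 4 motifs were not found in any member's window, and of all windows 0.356% held the NF-kB letters, 2.98% the ISRE letters, 7.02% the GAS letters and 12.4% the TATA letters. The Bcl2 window is rich in G and C (74.8%, against a median of 52.4% over all windows), while that of Bcl2a1b has 44.8%. A match describes these letters in this window only.

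The A1 copies bear on how the Bcl2a1b value is read. The Bcl2a1b transcript in GENCODE M21, 817 bases long, is 98.2% identical to that of Bcl2a1a and 99.1% to that of Bcl2a1d. In the 250 bases before the RefSeq starts, 205 of 206 aligned bases are shared with Bcl2a1a. The last bases of both windows lie inside the transcripts annotated in GENCODE. Of the 787 runs of 31 bases in the Bcl2a1b transcript, 73.3% also occur in another A1 copy. Neither Bcl2a1a nor Bcl2a1d was analysed here, and reads of near-identical copies cannot be assigned with certainty. The value named Bcl2a1b may therefore hold RNA of several A1 copies. The copy Bcl2a1c was at most 0.284 FPKM in every sample.

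Of the 9 members, 0 passed the test without a block for the mouse (limma, Benjamini-Hochberg adjusted p under 0.05 over all genes). That test called 1.85% of all genes, 1.47% in the upward and 0.381% in the downward direction. By limma's p before adjustment, with 0.05 as the limit, Bcl2a1b was higher and Bcl2 lower, where 5.2% of all genes were higher and 6.33% were lower. With the mouse as a block, which compares R848 and control within each animal, the same 2 members passed, Bcl2a1b upward and Bcl2 downward. The blocked test called 5.3% of all genes, 3.4% upward and 1.9% downward. The control and R848 groups did not overlap for 6 of the 9 members, against 42.2% of all genes. Mcl1, Bcl2a1b, Bax and Bak1 were higher with R848 in every sample (13.5% of all genes were), and Bcl2 and Bbc3 were lower (28.8% of all genes were). Within the mice, 5 members were higher with R848 in both (22.1% of all genes were), 2 were lower in both (38.8% of all genes were) and 2 were mixed. The median log2 difference of the 9 members was 0.10, against -0.08 over all genes. Each mouse gave a single culture per condition as far as the labels say, so n counts mice. In these bulk samples, fewer cells of a type and less RNA per cell cannot be told apart.

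**Figure D1:**
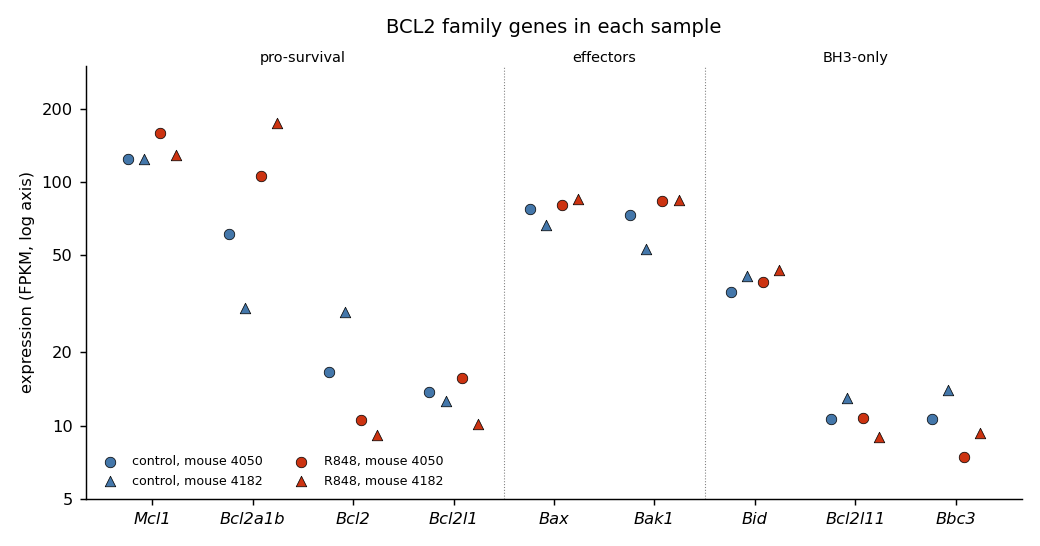
Expression in FPKM on a log axis for the 9 members, by role, with 1 point per sample (blue, control; red, R848; circles, mouse 4050; triangles, mouse 4182). Bcl2a1b is higher with R848 (106 and 175 FPKM) than in control (61.2 and 30.2), and Bcl2 is lower (10.5 and 9.18 against 16.5 and 29.3).

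Bcl2a1b, which encodes A1-b, a short-lived pro-survival protein of activated leukocytes, showed the largest difference of the family. The gene lies on chromosome 9 of GRCm38 (chr9:89199209-89207827, plus strand) and its coding transcript has 2 exons. It is overlapped by Gm29094, an annotated gene on the same strand. In mouse 4050 it went from 61.2 FPKM in control to 106 with R848, a ratio of 1.73. In mouse 4182 it went from 30.2 to 175, a ratio of 5.78. Both R848 samples were above both controls, and the mouse with the lower control had the higher treated value. The mean log2 difference was 1.63 (SE 0.35, 95% interval 0.80 to 2.47, limma adjusted p = 0.0869 without the block and 0.00376 with it).

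The blocked call of Bcl2a1b rested on a spread borrowed from other genes. The differences within the mice were 0.78 and 2.49 on the log2 scale, and their own SE was 0.86, while the blocked limma SE was 0.29. With a robust variance prior, which borrows less for genes that vary unusually, the blocked limma adjusted p was 0.644, against 0.00376 with the ordinary prior. With quantile normalization and the block it was 0.0621. Leaving out the control of mouse 4050 without the block gave a log2 difference of 2.13 and limma adjusted p = 0.00255. Leaving out the control of mouse 4182 gave 1.14 and limma adjusted p = 0.087. Without the R848 sample of mouse 4182 it was 1.28 (limma adjusted p = 0.533).

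Bcl2, the founding pro-survival member, showed the largest difference downward among the 9 members. It spans 176097 bases on chromosome 1 (chr1:106538178-106714274, minus strand) and is overlapped by the antisense gene D630008O14Rik. In mouse 4050 it went from 16.5 FPKM in control to 10.5 with R848, a ratio of 0.638, and in mouse 4182 from 29.3 to 9.18, a ratio of 0.314. The controls differed from each other more than the treated samples did, and neither treated value reached either control. The mean log2 difference was -1.09 (SE 0.27, 95% interval -1.73 to -0.45, limma adjusted p = 0.131 without the block and 0.0156 with it).

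The blocked call of Bcl2 held with the robust prior (limma adjusted p = 0.00617) and with median log ratio scaling (0.0434), and it missed the threshold with quantile normalization (0.0523). The differences within the mice were -0.60 and -1.57 on the log2 scale, with an SE of 0.49 of their own against 0.24 in the blocked fit. Without the block and without the control of mouse 4050 the log2 difference was -1.48 (limma adjusted p = 0.0139). Without the control of mouse 4182 it was -0.69 (limma adjusted p = 0.419). An exact permutation of the 4 samples cannot give a two-sided p below 0.333. Exact sign flips of the 2 mice, which keep the pairing as the blocked fit does, cannot give one below 0.5. The calls of both genes therefore rest on the fitted spread.

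**Figure D2:**
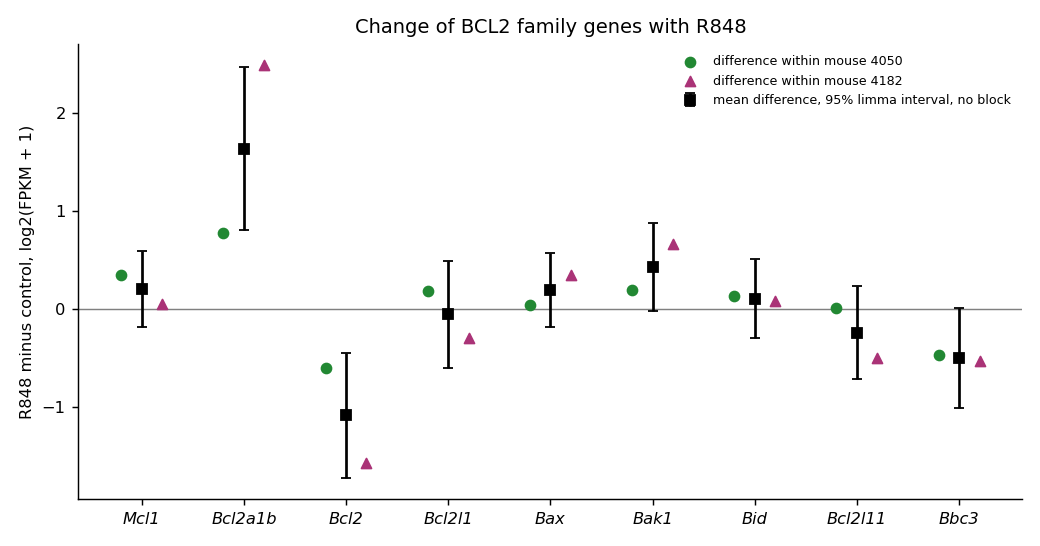
Difference between R848 and control in log2(FPKM + 1) for each member: circles, within mouse 4050; triangles, within mouse 4182; squares and bars, the mean with its 95% limma interval without the block. The intervals of Bcl2a1b (0.80 to 2.47) and Bcl2 (-1.73 to -0.45) lie off 0, and those of the other 7 members include it.

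Mcl1, which encodes a pro-survival protein with rapid turnover, was the most abundant member in 3 of the 4 samples. Its gene spans 4389 bases on chromosome 3 (chr3:95658788-95663176, plus strand). Its level in mouse 4050 was 124 FPKM in control and 159 with R848, and in mouse 4182 it was 125 and 129. The groups did not overlap, but the R848 sample of mouse 4182 was only 1.04 times its own control. The log2 difference was 0.20 (95% interval -0.18 to 0.59, limma adjusted p = 0.721).

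Bcl2l1, which encodes BCL-XL, a pro-survival protein best known in platelets and erythroid cells, moved in opposite directions in the mice. Mouse 4050 had 13.8 FPKM in control and 15.7 with R848, and mouse 4182 had 12.7 and 10.2. The control values lay between the R848 values. The log2 difference was -0.06 (95% interval -0.60 to 0.49, limma adjusted p = 0.964). The interval holds changes in either direction, so these values of 2 mice do not show that Bcl2l1 was unchanged. Under quantile normalization its sign turned, to a log2 difference of 0.002.

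The order of the pro-survival members by level changed with treatment. In control, Mcl1 was the highest in both mice, followed by Bcl2a1b, then Bcl2, then Bcl2l1. With R848, Bcl2 was the lowest of the 4 in both mice, below Bcl2l1, and in mouse 4182 Bcl2a1b was above Mcl1. The level of Bcl2 was 1.20 and 2.31 times Bcl2l1 in the controls and 0.67 and 0.905 times with R848. Bcl2a1b was 3.71 and 1.03 times Bcl2 in control and 10.0 and 19.0 times with R848.

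Summed over the 4 measured pro-survival members, expression in the controls of mice 4050 and 4182 was 216 and 197 FPKM, and with R848 it was 291 and 323. Bcl2a1b made up 28.4% and 15.4% of this sum in control and 36.4% and 54.0% with R848. Mcl1 made up 57.6% and 63.3% in control and 54.6% and 40.0% with R848. The share of Bcl2 was 7.66% and 14.9% in control and 3.63% and 2.84% with R848. Without Bcl2a1b, the sums overlapped between the groups, at 154 and 166 FPKM in control and 185 and 149 with R848. These sums describe the levels, with no test, and a sum over genes is not a sum over proteins.

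**Figure D3:**
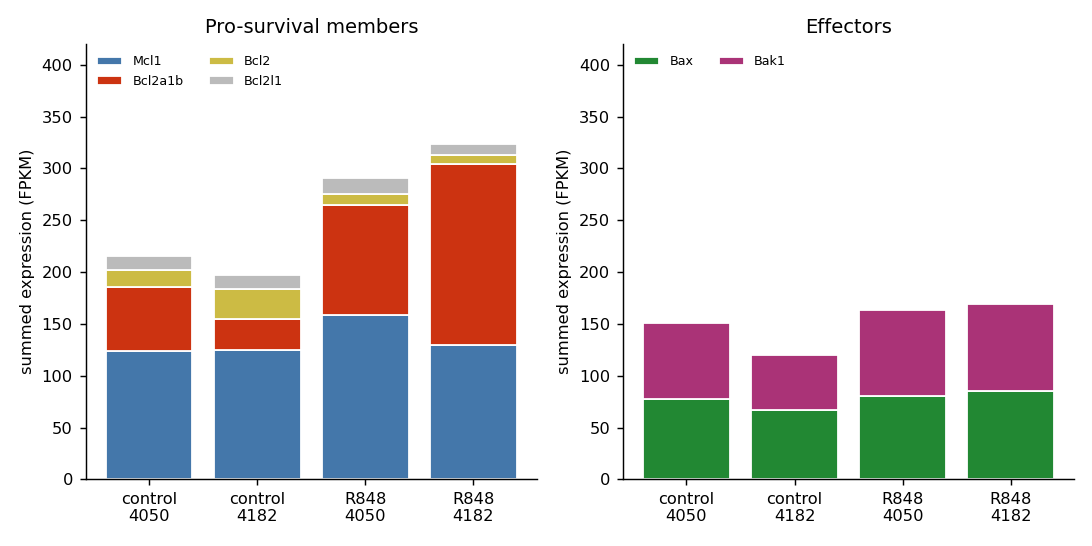
Stacked FPKM of the 4 pro-survival members (left) and the 2 effectors (right) in each of the 4 samples, with bars starting at 0. The pro-survival sum is 216 and 197 FPKM in control and 291 and 323 with R848, with the Bcl2a1b part of the bar larger in both R848 samples.

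The effectors were both somewhat higher with R848 in each mouse, and neither passed the test. Bax, whose protein moves from the cytosol to the mitochondrion when activated, was at 77.7 and 66.5 FPKM in control and 80.0 and 84.9 with R848, a log2 difference of 0.19 (95% interval -0.18 to 0.57, limma adjusted p = 0.728). It lies at chr7:45461697-45466898 on the minus strand. Bak1, whose protein sits in the mitochondrial outer membrane, was at 72.9 and 53.1 FPKM in control and 83.5 and 84.5 with R848. Its log2 difference was 0.43 (95% interval -0.02 to 0.87, limma adjusted p = 0.464, and 0.212 with the block). Bak1 lies at chr17:27019810-27029009 on the minus strand and is overlapped on the opposite strand by Ggnbp1. The R848 samples were close to each other for Bak1, and the control of mouse 4182 was the lowest of the 4 samples. Without that control the Bak1 log2 difference was 0.20.

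The sum of Bax and Bak1 was 151 and 120 FPKM in control and 164 and 169 with R848. The measured pro-survival sum was 1.43 and 1.64 times this effector sum in control and 1.78 and 1.91 times with R848. Leaving Bcl2a1b out of the sum gave ratios of 1.03 and 1.39 for the controls, and 1.13 and 0.878 for the R848 samples. The ratio was thus higher with R848 in both mice with Bcl2a1b counted. Without Bcl2a1b it was higher in mouse 4050 and lower in mouse 4182.

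The 3 BH3-only members did not pass the test in either direction. Bbc3, which encodes PUMA, known as a p53 target, was at 10.6 and 14.0 FPKM in control and 7.41 and 9.33 with R848. Both mice showed nearly the same difference, -0.47 and -0.54 on the log2 scale, with a mean of -0.50 (95% interval -1.01 to 0.01, limma adjusted p = 0.447, and 0.243 with the block). The blocked 95% interval, -0.94 to -0.06, lay below 0 before adjustment. Bbc3 lies at chr7:16308393-16318205 on the plus strand.

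Bcl2l11, which encodes BIM, known to be induced when growth factors are withdrawn, hardly differed in mouse 4050 and was lower in mouse 4182. It was at 10.7 and 13.0 FPKM in control and 10.7 and 8.94 with R848, a log2 difference of -0.24 (95% interval -0.72 to 0.23, limma adjusted p = 0.729). It lies at chr2:128126038-128162547 on the plus strand. Bid, whose protein links death receptors to the mitochondrion after cleavage by caspase-8, was the most abundant of the 3. It was at 35.3 and 41.2 FPKM in control and 38.7 and 43.6 with R848, a log2 difference of 0.10 (95% interval -0.30 to 0.51, limma adjusted p = 0.883). Bid lies at chr6:120891930-120916853 on the minus strand, and its end overlaps that of Bcl2l13 on the opposite strand. The summed level of the 3 BH3-only members was 56.5 and 68.2 FPKM in control and 56.9 and 61.9 with R848, so the groups overlapped.

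The 16 further BCL2 family genes listed held 10 with a mean of at least 1 FPKM. Without the block 0 of the 10 passed. With the block 1 fell and 0 rose. The gene that fell was Bnip3, a mitophagy receptor known to be induced by hypoxia, at 477 and 658 FPKM in control and 291 and 307 with R848 (log2 difference -0.90, limma adjusted p = 0.0783 without the block and 0.00341 with it). Its relative Bnip3l was at 180 and 221 FPKM in control and 150 and 116 with R848 (limma adjusted p = 0.26, and 0.0835 with the block). Bcl2l14 and Bcl2l15 had log2 differences of 0.57 and 0.58, with limma adjusted p of 0.309 and 0.693. The median log2 difference of the 10 genes was -0.20, against -0.08 over all genes, and 2 were higher and 5 lower in both mice.

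Downstream of the mitochondrion, 13 genes of the death relay were tested and 0 passed without the block. With the block 1 rose (Htra2) and 1 fell (Casp6). Htra2, a mitochondrial serine protease, was at 70.8 and 55.6 FPKM in control and 96.6 and 97.8 with R848 (log2 difference 0.62, limma adjusted p = 0.184, and 0.0417 with the block). Casp6, which encodes an executioner caspase, was at 45.6 and 38.8 FPKM in control and 21.1 and 10.9 with R848 (log2 difference -1.41, limma adjusted p = 0.0713, and 0.000699 with the block). Cycs, which encodes cytochrome c, was at 35.5 and 29.9 FPKM in control and 40.3 and 47.97 with R848 (log2 difference 0.42, limma adjusted p = 0.434, and 0.264 with the block). Diablo, which encodes SMAC, an antagonist of caspase inhibitors, was at -0.29 on the log2 scale (limma adjusted p = 0.589). The median log2 difference of the 13 genes was 4e-04, against -0.08 over all genes. With the block and quantile normalization Casp6 kept its call (limma adjusted p = 0.00638), while Htra2 (0.0968) did not.

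Of 7 caspase inhibitors tested, 0 passed with or without the block. Birc3, which encodes cIAP2, known as an NF-kB target, was at 43.5 and 50.9 FPKM in control and 70.2 and 70.2 with R848 (log2 difference 0.57, limma adjusted p = 0.196, and 0.0641 with the block). Birc5, which encodes survivin, was at 0.08 on the log2 scale, Naip6 at -0.20 and Birc2 at -0.12. Their limma adjusted p were 0.905, 0.789 and 0.884. The median of the 7 was -0.02.

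Of 12 tested genes of the death receptor pathway, which can also trigger the mitochondrial route through BID, 0 passed without the block and 3 rose with it. Fas, a death receptor, was at 10.7 and 9.81 FPKM in control and 19.4 and 17.3 with R848 (log2 difference 0.78, limma adjusted p = 0.104, and 0.0345 with the block). Mlkl, the pore former of necroptosis, was at 38.4 and 33.95 FPKM in control and 54.7 and 77.1 with R848 (log2 difference 0.83, limma adjusted p = 0.124, and 0.0182 with the block). Tnfsf10, which encodes the death ligand TRAIL, was at 1.03 and 1.51 FPKM in control and 2.57 and 5.59 with R848 (log2 difference 1.10, limma adjusted p = 0.22, and 0.0242 with the block). Without the R848 sample of mouse 4182, and without the block, the log2 difference of Tnfsf10 was 0.66 (limma adjusted p = 0.752). Tnfrsf10b, the TRAIL receptor of the mouse, was at -0.28 and Cflar, an inhibitor of caspase-8, at -0.15 (limma adjusted p = 0.68 and 0.809). The median of the 12 was 0.07. With the block and quantile normalization Fas kept its call (limma adjusted p = 0.0318), and Mlkl (0.0819) and Tnfsf10 (0.0517) did not.

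Of 15 tested regulators of BCL2 family transcription, Irf1 rose and 0 fell, with or without the block. Irf1, an interferon-induced transcription factor, was at 58.9 and 57.7 FPKM in control and 216 and 285 with R848 (log2 difference 2.07, SE 0.18, limma adjusted p = 0.00351 without the block and 4.23e-06 with it). Relb, a subunit of NF-kB, was at 0.45, Ddit3, which encodes CHOP, at -0.72 and Myc at -0.38, with limma adjusted p of 0.482, 0.244 and 0.463. The median of the 15 was -0.06, and Trp73 was listed at 0 in all 4 samples. Of 14 genes for turnover and chaperones of the family, 0 passed with or without the block. Among them Huwe1, a ubiquitin ligase of MCL1, was at -0.37, Bag4 at -0.21, Dynll1 at 0.28 and Tmbim6 at 0.24, with limma adjusted p from 0.482 to 0.759.

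**Figure D4:**
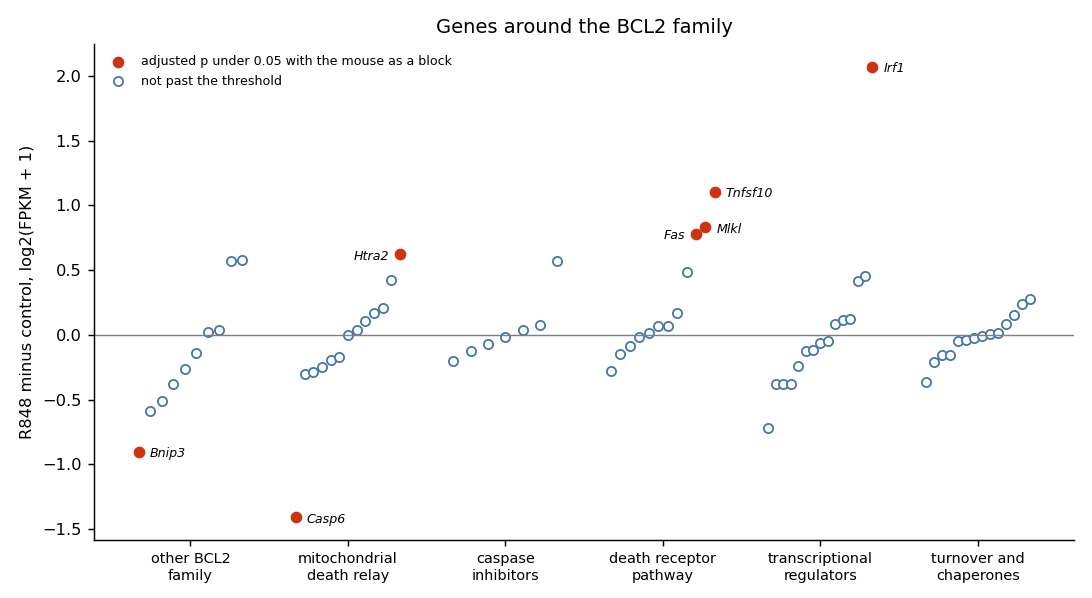
Log2 difference between R848 and control for each tested gene of the 6 lists around the family, sorted within each list; filled red points passed the limma test with the mouse as a block (adjusted p under 0.05), open points did not. The named points are Bnip3 and Casp6 below 0 and Htra2, Fas, Mlkl, Tnfsf10 and Irf1 above it, and Irf1 alone also passed without the block.

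Cell type markers were measured beside these values because the cells were not sorted, as far as the labels say. Early myeloid markers were abundant (summed over 8 genes, 7134 to 8552 FPKM over the 4 samples), as were neutrophil markers (7 genes, 47571 to 86868 FPKM). Most of the early myeloid sum came from granule genes such as Mpo, Ctsg and Prtn3. Of the 7 tested markers in that list, 3 were higher with R848 in both mice, 3 were lower in both and 1 (Elane) was mixed. Those higher were Prtn3, Ctsg and Ms4a3, with log2 differences of 0.39, 0.43 and 0.48 (limma adjusted p from 0.372 to 0.464). Those lower were Cd34, Kit and Mpo. Cd34 was at 26.6 and 39.9 FPKM in control and 12.1 and 17.4 with R848 (log2 difference -1.11, limma adjusted p = 0.103, and 0.00187 with the block), and it was the only 1 of the 7 tested that fell with the block. Kit was at 11.6 and 15.4 FPKM in control and 10.8 and 6.67 with R848 (limma adjusted p = 0.453). Flt3, below the filter, was at 1.57 and 1.92 FPKM in control and 0.331 and 0.0942 with R848. Cd34, Kit and Flt3 were lower with R848 in both mice. The 4 haematopoietic markers differed widely in level. The pan-leukocyte marker Ptprc was at 1.27 to 2.69 FPKM, Runx1 at 8.51 to 14.9, Spi1 at 144 to 206 and Cd52 at 512 to 828. Why Ptprc was low was not tested. Markers of B cells, which are known to express Bcl2, were low. They summed over 6 genes to 14.7 and 16.3 FPKM in control and 41.7 and 43.3 with R848, and 3 of 5 tested rose without the block. Most of the B cell sum in control was Cd79b, at 12.8 and 14.9 FPKM, against 23.0 and 29.2 with R848. Plasma cell markers summed over 6 genes to 20.3 and 19.4 FPKM in control and to 735 and 624 with R848, and 4 of 5 tested rose. Most of this sum was Sdc1 in control (14.0 and 15.6 FPKM) and Igkc with R848 (601 and 507 FPKM). T cell markers summed over 7 genes to 3.60 and 5.42 FPKM in control and 9.29 and 12.7 with R848, with 2 of 4 tested rising. NK cell markers (5 genes) summed to at most 2.68 FPKM and erythroid markers (4 matched genes) to at most 2.84. Megakaryocyte and platelet markers summed over 4 genes to 99.4 and 84.5 FPKM in control and 449 and 212 with R848. Most of this sum was Pf4, at 68.5 and 56.1 FPKM in control and 354 and 183 with R848. Without the block 1 of 4 rose (Pf4, log2 difference 2.02, limma adjusted p = 0.0215), and with it 2 rose (Pf4 and Ppbp). Gp9 was lower in both mice and Itga2b was mixed, with log2 differences of -0.40 and -0.12 (limma adjusted p = 0.653 and 0.913). Mast cell and basophil markers summed over 4 genes to 1399 and 1493 FPKM in control and 1986 and 1223 with R848, with 0 of 4 rising without the block and 1 with it (Fcer1a, limma adjusted p = 0.0049). The summed B, T and plasma cell markers were each higher in both R848 samples than in both controls. Markers of monocytes and macrophages, cells in which A1 is also expressed, had 1 of 8 tested genes rising (Emr1) and 1 falling (Mrc1) without the block. With the block 4 rose (Emr1, Csf1r, Ly6c2 and Cd14) and 1 fell (Mrc1). In both mice 6 of the 8 were higher with R848 (22.1% of all genes were) and 2 were lower (38.8% of all genes were). Their median log2 difference was 0.52, against -0.08 over all genes. Dendritic cell markers summed over 6 genes to 19.6 and 7.71 FPKM in control and 4.13 and 2.92 with R848. The largest part in control was Itgax, at 15.3 and 3.02 FPKM, against 1.31 and 0.584 with R848. Flt3 is in this list too. Zbtb46 had a log2 difference of -0.19 (limma adjusted p = 0.839), and Xcr1, Siglech and Clec9a were below 1 FPKM in every sample. The summed neutrophil level moved in opposite directions in the mice. It was 77268 FPKM in control and 86868 with R848 in mouse 4050, and 59843 and 47571 in mouse 4182. Most of this sum was S100a8 and S100a9, at 37968 and 34984 FPKM in the control of mouse 4050. Of the 7 markers, 0 were higher with R848 in both mice and 4 were mixed. Ly6g, Camp and Mmp8 were lower in both, as were 38.8% of all genes. The part of these cell types in the values of the BCL2 family was not tested.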

How the data were processed

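RNA sequencing libraries of 4 samples were used, a control and an R848 library from each of 2 mice. The authors deposited gene values as log2 FPKM, per the file headers. Kallisto and mm10 are named in the submitters' processing notes. Not given in the sources used here are versions, the annotation and how transcripts were summed. Values start at 0, and taking them as log2(FPKM + 1) gave linear sums of 950530 to 962001 per sample, as TPM would. No counts were used, so no count model was fitted and depth is unknown.

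Of 28192 table entries, 27 named as dates were dropped, as were 91 repeats (of 90 symbols), keeping the one with the highest mean. The filter was a mean of 1 FPKM or more. The 12612 genes left were fitted by limma 3.58.1 (R 4.3.3) on log2(FPKM + 1), with a pseudocount of 1 and a trended variance prior, and p-values were two-sided and Benjamini-Hochberg adjusted over all of them. Residual degrees of freedom were 2, to which the prior added 5.27 (1 and 11.3 with the mouse as a block). The labels give each mouse number to 1 control and 1 R848 sample of that animal, which pairs them. Deviations of paired samples from their group means had a correlation of 0.289 over genes. The reported values are without the block unless stated. Tested on simulated data with known changes, both fits made a larger share of false calls than the threshold of 0.05 allows. The blocked fit made a larger share than the fit without the block. The simulated samples were drawn once for each setting, independently and with no effect of the mouse. They therefore cannot show how the fits compare on paired samples such as these.

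The members, lists, markers and motifs were chosen with earlier results of these data known. The genes named beside the members were, from each list, the 2 higher and the 2 lower with the smallest p and every gene called with or without the block. Of the list genes other than markers, Bcl2a1a and Bcl2a1d were not matched. For 1 further gene of the death relay, results are not reported here. Gene models and transcripts came from GENCODE M21 on GRCm38, and promoters from RefSeq on GRCm38.p6. Sequences were aligned with Biopython 1.88, and matplotlib 3.10.9 under Python 3.11.15 made the figures. Alternatives were a pseudocount of 0.1, no filter, a filter at 5 FPKM, rescaling by quantiles or by the median log ratio, the block alone and with each rescaling, a constant and a robust variance prior, and leaving out each sample. The block with the robust prior was added after seeing the data.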

Additional observations from a re-analysis of the deposited data

How the results depend on the processing

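Of the 9 members, Bcl2, Mcl1, Bcl2a1b, Bax, Bak1, Bcl2l11 and Bbc3 kept their direction under all 15 alternatives. Bcl2l1, near 0, turned to 0.002 with quantile normalization and 0.018 with median log ratio scaling (with or without the replicate block) and ranged from -0.35 to 0.24 with 1 sample left out, above 0 without the R848 sample of mouse 4182. Bid ranged from -0.0056 (without the control of mouse 4050) to 0.22. The members called higher and lower, 0 and 0, became 1 and 1 with the replicate block and with the block and median log ratio scaling, 1 and 0 with a minimum of 5 FPKM, and 0 and 1 with the block and the robust prior. The median of the members moved from 0.10 to 0.18 with median log ratio scaling, with or without the block. Of all genes, 185 were called higher and 48 lower. This became 0 and 0 with no filter (1880 genes had a limma p under 0.05 before adjustment), 76 and 12 with quantile normalization and 91 and 15 with median log ratio scaling. With the block it was 429 and 240, with the block and quantile normalization 354 and 136, with the block and median log ratio scaling 404 and 145, and with the block and the robust prior 450 and 322. The robust prior alone gave 220 and 99. Leaving out 1 sample gave 0 to 1 members higher and 0 to 1 lower (1 and 1 without the control of mouse 4050), a median of -7e-04 to 0.15, and 46 to 259 genes higher and 10 to 136 lower. The cause of these moves was not tested. The rescalings moved the median of all genes by less than 0.1. Unknown depth and 2 mice limit what can be detected.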
